A study of Mus musculus with 28 samples.

Results

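Genes of chromosomes 6, 8 and 11 were followed in the RNA of mouse embryonic stem cells. The members were the 2862 genes on these chromosomes with 160 or more reads summed over the 16 RNA libraries, out of 15676 such genes on all chromosomes. Chromosome 6 held 736 of them, chromosome 8 held 807 and chromosome 11 held 1319. The threshold cut through a continuous range, with 43 genes of these chromosomes at 160 to 176 reads and 41 at 144 to 159. The chromosomes were chosen by the RNA levels of their genes in these same libraries, so their levels and the counts of called genes are given as a description. The study compared WT cells (J1 line, strain 129S4/SvJae) with cells knocked out for Dnmt1, Dnmt3a and Dnmt3b (DNMT TKO) and cells knocked out for Tet1, Tet2 and Tet3 (TET TKO). All were grown in 2i + LIF, transduced with a lentiviral vector carrying an empty hairpin cassette (shEmpty) or a hairpin against Kap1 (shKap1), selected with puromycin and collected at day 5. Each WT and DNMT TKO group had 3 libraries, and each TET TKO group had 2. Each mutant genotype was a single line obtained from a separate laboratory, so the line and the genotype cannot be told apart.

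A cell with an extra copy of a chromosome tends to carry more RNA from most of its genes, and a cell that has lost a copy less, so a shift shared by the genes of a chromosome is a common readout of its dosage. Mouse embryonic stem cells are known to gain whole chromosomes during culture, most often chromosomes 8 and 11, and trisomic cells can outgrow the others. In these bulk samples fewer cells of a kind and less RNA per cell cannot be told apart. In a culture that mixes cells of both kinds the RNA gives an average. RNA does not count copies, and DNA of the mutant lines was not analysed here.

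The RNA libraries held 18108431 to 29373696 reads on genes. Chi-square per gene between the counts of 2 libraries of a group was 1.69 to 46.9, the highest between both TET TKO shEmpty libraries. In WT and DNMT TKO, replicate 1 differed from replicates 2 and 3 by 11.3 to 15.6, and these from each other by 1.84 to 6.14. Kap1 (Trim28) fell from 1713 ± 185 to 170.2 ± 20.9 CPM in WT (SD, n = 3). In DNMT TKO it fell from 1840 ± 184 to 439 ± 93.4 CPM (SD, n = 3), and in TET TKO from 1757 ± 65.1 to 167 ± 3.60 CPM (SD, n = 2). More Kap1 RNA was thus left in DNMT TKO, so its shKap1 comparisons with WT and TET TKO set unequal knockdowns side by side. On the scale of all reads on genes, without TMM scaling, the listed embryonic stem cell markers summed to 2467 to 4060 CPM. That list held 8 genes, of which Tfcp2l1 had no value. The 8 fibroblast markers summed to 6.15 to 17.3 CPM, with Dcn, Lum and Postn each at 0 in every library of at least 1 group. The other gene levels below are CPM with TMM scaling.

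For each library, the dosage value of a chromosome was the median over its genes of the log2 difference from the mean of the WT libraries with the same hairpin, minus the same median over the 16 other autosomes. A WT library was set against the other WT libraries of its hairpin. The SD of a mutant group covers its own libraries and leaves out the spread of the reference libraries. As a yardstick of arithmetic, 3 copies against 2 give a log2 ratio of 0.58.

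Chromosome 11 was higher in every DNMT TKO library. DNMT TKO and TET TKO were set against the same WT libraries, so their values are given side by side. The dosage values were 0.33, 0.33 and 0.33 with shEmpty, a mean of 0.33 ± 0.0020 (SD, n = 3) or 1.26-fold, and 0.40, 0.38 and 0.40 with shKap1, a mean of 0.39 ± 0.011 (SD, n = 3) or 1.31-fold. In the WT libraries the values lay between -0.03 and 0.02. The DNMT TKO libraries lay apart from these, but such a separation was not particular to chromosome 11. On chromosome 2, DNMT TKO shEmpty was at 0.010 to 0.012 and WT shEmpty at -0.0075 to 0.0062. Chromosome 11 stayed near the other autosomes in TET TKO, at -0.0025 and 0.0041 with shEmpty and 0.03 and 0.04 with shKap1. The 16 other autosomes had group means in DNMT TKO of -0.06 to 0.10 with shEmpty and -0.04 to 0.09 with shKap1, the highest being chromosome 16 in both.

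**Figure D1:**
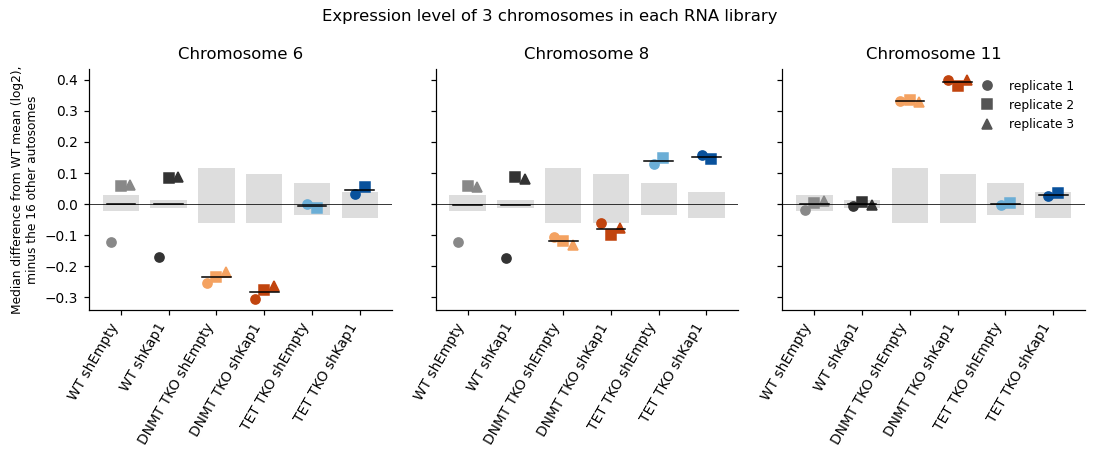
Each point is a library and its height is the median log2 difference of the genes of chromosome 6, 8 or 11 from the mean of all 3 WT libraries of the same hairpin, minus that of the 16 other autosomes. Black lines are group means and grey boxes span the single values of the 16 other autosomes in the libraries of that group; DNMT TKO libraries sit at 0.33 to 0.40 on chromosome 11, and replicate 1 of WT sits below replicates 2 and 3 on chromosomes 6 and 8.

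The rise ran along the whole of chromosome 11. All 13 bins of 10 Mb were above 0 in every DNMT TKO library, with bin means from 0.20 to 0.53 with shEmpty and from 0.30 to 0.48 with shKap1. In TET TKO the bins of chromosome 11 ran from -0.07 to 0.15 with shEmpty and from -0.0043 to 0.08 with shKap1. Over 183 bins of the 16 other autosomes, the middle 95% of the DNMT TKO means spanned -0.15 to 0.28 with shEmpty and -0.18 to 0.21 with shKap1. The highest of these bins, on chromosome 1 from 20 Mb, was at 0.42 with shEmpty, inside the range of chromosome 11. With shKap1 it was at 0.29.

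Gene by gene, 75.8% of the chromosome 11 genes were above the median of the other autosomes with shEmpty in DNMT TKO, and 76.3% with shKap1. With edgeR's quasi-likelihood test and a Benjamini-Hochberg adjusted p under 0.05, 682 of the 1319 genes were called higher and 127 lower with shEmpty, which is 51.7% and 9.63% beside 26% and 26.5% of all genes tested. With shKap1, 747 were called higher and 151 lower, beside 28.6% and 29.6% of all genes. In TET TKO, 202 were higher and 207 lower with shEmpty, beside 17.5% and 16.7%, and 247 were higher and 221 lower with shKap1, beside 19.1% and 18%. Leaving out 1 TET TKO library, replicate 1 or 2, lowered these to as few as 138 and 108 with shEmpty and 152 and 119 with shKap1.

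Over the 3 chromosomes together, 1781 members were called in either direction in DNMT TKO shEmpty, beside 52.5% of all genes, and 1952 with shKap1, beside 58.2%. In TET TKO the counts were 901 with shEmpty and 1033 with shKap1, beside 34.3% and 37.1%. With a fold of at least 2 as well, 496 and 631 members were called in DNMT TKO, beside 16% and 18.5% of all genes, and 288 and 306 in TET TKO, beside 11.3% and 11.4%. Between DNMT TKO and TET TKO they were 473 and 568, beside 14.4% and 16.3%. At that fold, DNMT TKO shEmpty had 62 genes higher and 80 lower on chromosome 6, and 151 and 68 on chromosome 11. On chromosome 8 it had 52 and 83, and the shares of all genes were 8.31% and 7.66%. With shKap1 the counts were 75 and 109 on chromosome 6, 77 and 97 on 8, and 211 and 62 on 11, beside 10.3% and 8.23%.

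Chromosome 8 split into stretches in DNMT TKO. Its whole-chromosome value was -0.12 ± 0.013 with shEmpty and -0.08 ± 0.018 with shKap1 (SD, n = 3), but this average described few of its bins. Its sign also turned with the WT reference, from 0.01 and 0.08 against WT replicate 1 alone to -0.20 and -0.15 against replicates 2 and 3. Of the 12 bins with 20 or more genes, the 7 that fell between 10 and 90 Mb were above 0 and the other 5 were below 0, in every library and with both hairpins. The stretches below were set after these bins were seen, so they carry no test.

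From 10 to 90 Mb, the 450 genes of chromosome 8 had values of 0.14, 0.13 and 0.10 in DNMT TKO shEmpty and of 0.20, 0.18 and 0.19 in DNMT TKO shKap1. From 90 Mb to the end, the 320 genes had values of -0.42, -0.45 and -0.47 with shEmpty and of -0.43, -0.45 and -0.43 with shKap1. In the first 10 Mb, the 37 genes had values of -0.54, -0.57 and -0.58 with shEmpty and of -0.64, -0.53 and -0.61 with shKap1. The outer stretches lay below the middle in every DNMT TKO library, whereas TET TKO held 0.07 to 0.21 in the first, 0.14 to 0.16 in the second and 0.13 to 0.16 in the last.

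**Figure D2:**
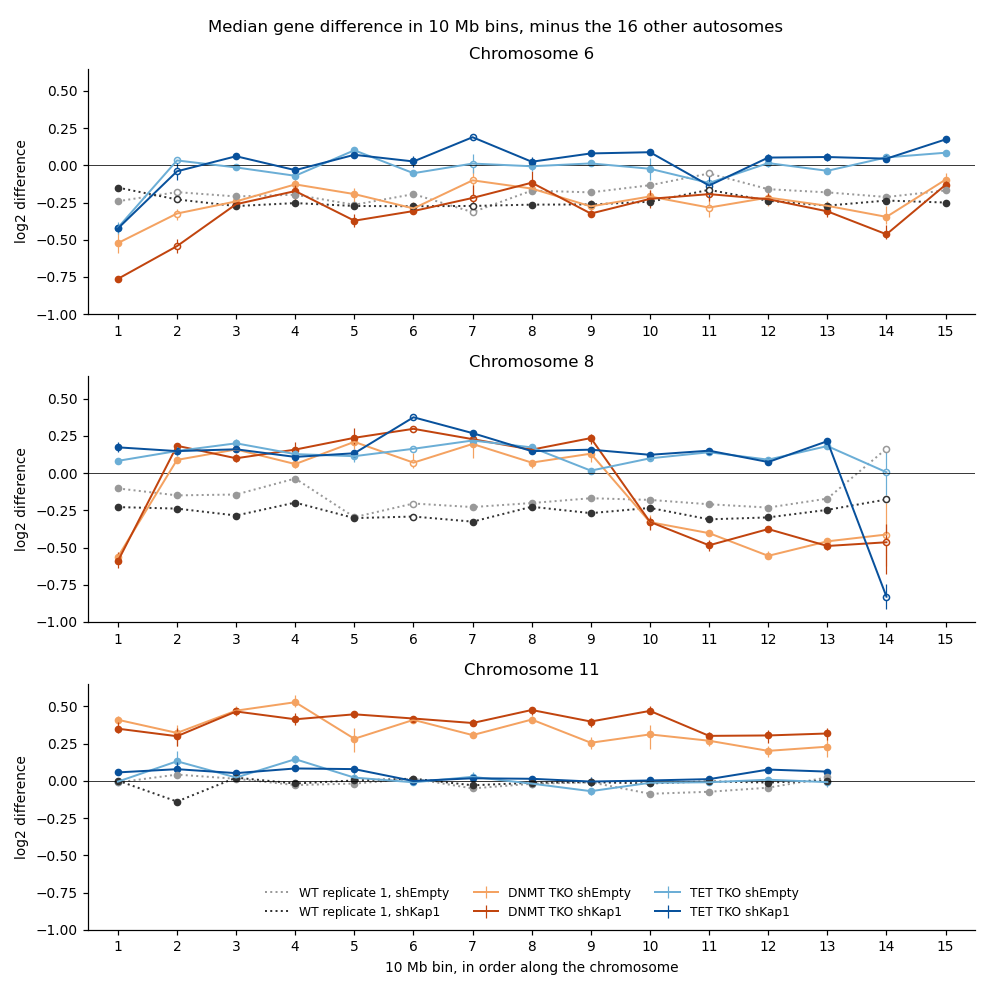
Each point is the mean over the libraries of a group of the median log2 difference of the genes in a 10 Mb bin from WT, minus the 16 other autosomes, with bars from the lowest to the highest library; open points hold fewer than 20 genes, and dotted lines set WT replicate 1 against WT replicates 2 and 3. DNMT TKO is above 0 along all of chromosome 11 and falls below 0 at both ends of chromosome 8, while on chromosome 8 all 12 full bins of TET TKO are above 0 and all 12 of WT replicate 1 are below 0.

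The step on the distal side lay close to 94 Mb. In 2 Mb windows of DNMT TKO shEmpty, the 13 genes at 90 to 92 Mb and the 6 genes at 92 to 94 Mb had medians of 0.24 and 0.12, and the 6 genes at 94 to 96 Mb and the 34 genes at 96 to 98 Mb had medians of -0.55 and -0.44. With shKap1 the same windows had medians of 0.05, 0.13, -0.49 and -0.52. On the proximal side, the 4 genes at 8 to 10 Mb had medians of -0.56 and -0.52, the 10 genes at 10 to 12 Mb had medians of -0.11 and -0.17 and the 18 genes at 12 to 14 Mb had medians of 0.05 and 0.12, for shEmpty and shKap1. These windows hold few genes.

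Calls are given by stretch as a description only, since the stretches were set from the levels of these same genes. In DNMT TKO shEmpty, 207 of the 320 distal genes were called lower and 26 higher, 29 of the 37 genes of the first 10 Mb were lower and 1 was higher, and between them 153 of 450 were higher and 91 lower. With shKap1 the distal counts were 197 lower and 32 higher, those of the first 10 Mb were 27 and 3, and those between were 86 lower and 194 higher. The shares over all genes are those given above for chromosome 11.

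Set directly against TET TKO, with no WT library in the comparison, the middle stretch of DNMT TKO did not stand apart, at -0.0029 ± 0.010 with shEmpty and -0.02 ± 0.0080 with shKap1 (SD, n = 3). The distal stretch was at -0.60 ± 0.016 and -0.56 ± 0.020, or 0.662-fold and 0.678-fold, and the first 10 Mb at -0.61 ± 0.072 and -0.75 ± 0.062. These SDs leave out the spread between the TET TKO libraries. Chromosome 11 was at 0.33 ± 0.0067 and 0.37 ± 0.0053 in this comparison, and chromosome 6 at -0.23 ± 0.013 and -0.34 ± 0.013. The other autosomes lay between -0.05 and 0.07. In the same comparison edgeR called 1680 of the 2862 members with shEmpty and 1803 with shKap1, beside 47.6% and 51.2% of all genes. It called 663 genes of chromosome 11 higher and 123 lower with shEmpty, beside 23.4% and 24.2% of all genes.

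Replicate 1 of WT stood apart from replicates 2 and 3 on chromosomes 6 and 8, with both hairpins. On chromosome 6 it was lower by a log2 difference of -0.18 with shEmpty and -0.25 with shKap1, and on chromosome 8 by -0.18 and -0.26. Of the genes of chromosome 8, 82.2% and 85% were below the other autosomes in this comparison, and of chromosome 6, 79.2% and 85.6%. Chromosome 11 gave -0.03 and -0.0092, and the 16 other autosomes gave -0.03 to 0.04 with shEmpty and -0.02 to 0.02 with shKap1. Replicate 2 minus replicate 3 lay between -0.01 and 0.0046 on the 3 chromosomes. All 12 full bins of chromosome 6 and all 12 of chromosome 8 were lower in replicate 1 with both hairpins. The files give each replicate a number and no passage or date, and what set replicate 1 apart was not tested.

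**Figure D3:**
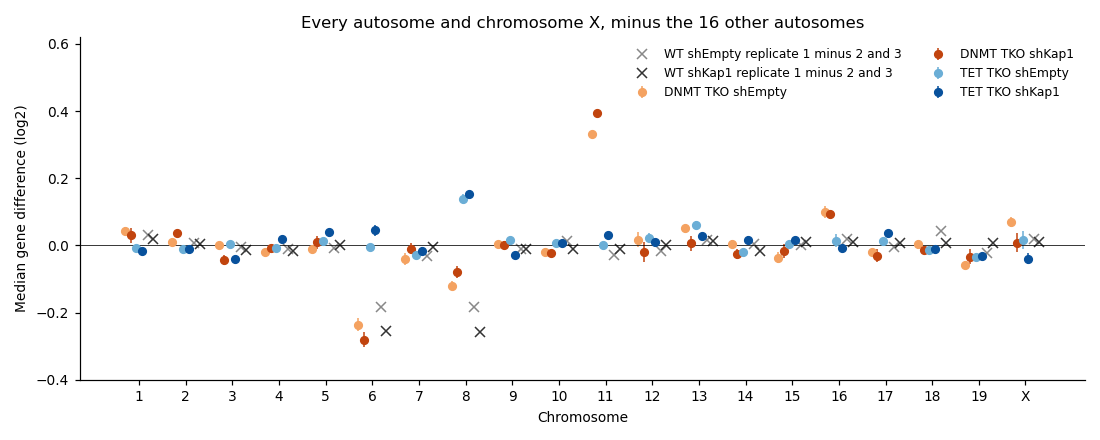
The height is the median log2 difference of the genes of each chromosome from WT, minus the 16 other autosomes, as group mean with SD for mutant groups (circles) and as WT replicate 1 minus the mean of WT replicates 2 and 3 (crosses). Chromosome 11 in DNMT TKO lies at 0.33 and 0.39, chromosome 8 in TET TKO at 0.14 and 0.15, and the crosses of chromosomes 6 and 8 lie between -0.18 and -0.26.

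The WT reference therefore moved the values of chromosomes 6 and 8. On chromosome 6, DNMT TKO was at -0.24 ± 0.018 with shEmpty and -0.28 ± 0.022 with shKap1 against all WT libraries (SD, n = 3). Against WT replicate 1 alone it was at -0.11 and -0.10, and against replicates 2 and 3 at -0.30 and -0.38. All 12 full bins of chromosome 6 were below 0 in every DNMT TKO library. The fall was smaller among genes with few reads. For genes low, middle and high in total reads, the edgeR medians were -0.05, -0.27 and -0.30 with shEmpty. With shKap1 they were -0.14, -0.31 and -0.33. On chromosome 6, edgeR called 114 genes higher and 351 lower in DNMT TKO shEmpty, and 129 higher and 386 lower in DNMT TKO shKap1, beside 26% and 26.5%, and 28.6% and 29.6%, of all genes.

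TET TKO was higher on chromosome 8, at 0.13 and 0.15 with shEmpty and 0.16 and 0.15 with shKap1. All 12 full bins were above 0 in every library, the lowest at 0.02 with shEmpty, from 80 to 90 Mb. These bins were set against all WT libraries, and WT replicate 1 was itself low in all 12. Bins against replicates 2 and 3 alone were not taken. Against WT replicate 1 alone the whole chromosome was at 0.27 and 0.31 in TET TKO, and against replicates 2 and 3 at 0.08 and 0.07. The other autosomes spanned -0.03 to 0.06 and -0.04 to 0.04 against all WT libraries. EdgeR called 185 genes of chromosome 8 higher and 54 lower in TET TKO shEmpty, and 227 higher and 53 lower with shKap1, beside 17.5% and 16.7%, and 19.1% and 18%, of all genes. With both WT libraries of replicate 1 left out, 184 were higher and 85 lower with shEmpty, and 201 higher and 90 lower with shKap1. Leaving out either TET TKO library of a comparison moved these counts by more than 1.5-fold, down to 110 higher and 31 lower with shEmpty and to 137 higher and 27 lower with shKap1. On chromosome 6, TET TKO was at -0.0060 and 0.04, and turned from 0.13 and 0.22 against WT replicate 1 to -0.06 and -0.03 against replicates 2 and 3.

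The value of the distal part of chromosome 8 in DNMT TKO kept its sign under each reference. With shEmpty it was -0.29 against WT replicate 1 alone and -0.51 against replicates 2 and 3, and with shKap1 -0.24 and -0.53. The middle stretch was at 0.23 and 0.08 with shEmpty and at 0.34 and 0.12 with shKap1. Chromosome 11 in DNMT TKO moved little, from 0.35 to 0.33 with shEmpty and from 0.41 to 0.39 with shKap1.

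The shift between hairpins was also taken within each line. EdgeR called 1540 members in WT, 1126 in DNMT TKO and 970 in TET TKO, beside 54.6%, 42.5% and 36.5% of all genes, and with a fold of at least 2 it called 460, 314 and 339, beside 17.1%, 11.4% and 12.6%. Same-numbered libraries of WT, and of DNMT TKO, deviated together, so the shifts were also taken by pair: in WT they were 0.01, 0.08 and 0.09 on chromosome 6, -0.09, -0.03 and -0.02 on chromosome 8 and -0.11, -0.09 and -0.12 on chromosome 11. In DNMT TKO the pairs ran from -0.0027 to 0.02, from -0.04 to -0.0080 and from -0.06 to -0.01. As group means, in DNMT TKO shKap1 minus shEmpty was 0.0013 on chromosome 6, -0.03 on chromosome 8 and -0.03 on chromosome 11. In TET TKO it was 0.13, -0.03 and -0.07, and in WT 0.06, -0.05 and -0.10. The 16 other autosomes spanned -0.08 to 0.15 in WT, -0.07 to 0.10 in DNMT TKO and -0.07 to 0.09 in TET TKO. Chromosome 6 in TET TKO lay above the range of the other autosomes, and chromosome 11 in WT and, by less than 0.01, in TET TKO lay below it.

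Listed genes of common functions were counted on each chromosome. On chromosome 11 as a whole, 51.7% and 56.6% of genes were called higher in DNMT TKO with shEmpty and shKap1. On chromosome 6, 47.7% and 52.4% were called lower. The list counts of these chromosomes are to be read beside these shares too. The chromosomes were chosen from these same contrasts, so single genes are given with their values and no p. All 6 proteasome subunits on chromosome 11 were called higher in DNMT TKO with both hairpins, with medians of 0.50 and 0.63, beside 26% and 28.6% of all genes called higher. Of the 29 on chromosomes other than 6, 8 and 11, 10 were higher and 3 lower with shEmpty, and 14 higher and 4 lower with shKap1. Of the 2 on chromosome 8, 1 was lower with shEmpty and 2 with shKap1. Psmd12, a subunit of the regulatory particle (chr11:107340798-107365676, mm9), had 240, 226 and 215 CPM in WT shEmpty and 329, 323 and 330 CPM in DNMT TKO shEmpty. Its log2 difference was 0.53 ± 0.05 (SE). In TET TKO shEmpty it had 197 and 195 CPM. Of the 7 ribosomal protein genes on chromosome 11, 5 were higher with shEmpty and 7 with shKap1 and none was called lower, read against the same shares of all genes. Of 72 on chromosomes other than 6, 8 and 11, 8 were higher and 8 lower with shEmpty, and 14 higher and 13 lower with shKap1.

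Of the 12 listed genes of DNA replication and chromosome segregation on chromosome 11, in DNMT TKO 10 were higher with shEmpty and 11 with shKap1, beside 26% and 28.6% of all genes, and none was lower. Top2a, the topoisomerase that untangles replicated DNA, had 1315, 1216 and 1212 CPM in WT shEmpty and 1511, 1608 and 1651 CPM in DNMT TKO shEmpty. Its log2 difference was 0.35 ± 0.05 (SE). Suz12, a core subunit of Polycomb repressive complex 2, rose by more than its chromosome, with a log2 difference of 1.23 ± 0.06 (SE), and was also higher in TET TKO shEmpty at 0.56 ± 0.07.

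Among the 11 pluripotency and growth regulators of chromosome 11, 3 were higher and 1 lower in DNMT TKO shEmpty, beside 26% and 26.5% of all genes. The share higher was near that of all genes and below the 51.7% of chromosome 11. With shKap1 7 were higher, beside 28.6%. Grb2, an adaptor of growth factor receptor signalling, had 119, 103 and 101 CPM in WT shEmpty and 166, 163 and 164 CPM in DNMT TKO shEmpty. Trp53, the p53 tumour suppressor, had 410, 372 and 367 CPM in WT shEmpty and 533, 458 and 428 CPM in DNMT TKO shEmpty, a log2 difference of 0.30 ± 0.09 (SE). Stat3, the transcription factor downstream of LIF, was not called with shEmpty, at 0.08 ± 0.06 (SE). Npm1, the nucleolar chaperone with most reads on chromosome 11, had 2519, 2227 and 2176 CPM in WT shEmpty and 3177, 2892 and 2992 CPM in DNMT TKO shEmpty, so the groups did not overlap.

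On chromosome 8, the 12 replication and segregation genes are given by position, as a description, since the stretches and the list were chosen with results known. In DNMT TKO, 6 were lower with both hairpins (Gins3, E2f4, Ctcf, Cenpn, Gins2 and Cdt1), beside 26.5% and 29.6% of all genes, and each of these starts beyond 94 Mb. All 12 are given, but Gins3, E2f4, Cenpn, Gins2, Gins4 and Rnaseh2a, like Psmd12 and Nacc1, were picked for naming after their values were seen. The other 6 lie between 10 and 90 Mb, of which Gins4, Smarca5 and Asf1b were higher with both hairpins, Mcm5 was higher with shKap1 alone, and Orc6 and Rnaseh2a were not called. Cdt1, which licenses replication origins, had 241, 243 and 239 CPM in WT shEmpty and 148, 147 and 137 CPM in DNMT TKO shEmpty, a log2 difference of -0.74 ± 0.07 (SE). Smarca5, an ATPase that slides nucleosomes, had 428, 451 and 448 CPM in WT shEmpty, 595, 572 and 606 CPM in DNMT TKO shEmpty and 575 and 568 CPM in TET TKO shEmpty.

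Cdh1, the adhesion protein E-cadherin (chr8:109127251-109194146, mm9), held the most reads of chromosome 8. It had 1053, 1405 and 1418 CPM in WT shEmpty, the lowest being replicate 1, and 553, 715 and 727 CPM in DNMT TKO shEmpty. Its log2 difference was -0.96 ± 0.14 (SE), and in TET TKO shEmpty it had 1261 and 1303 CPM. Zfp42 (Rex1), a marker of naive cells in the middle stretch, was far above its chromosome in DNMT TKO shEmpty, with a log2 difference of 2.36 ± 0.08 (SE). Of the 11 pluripotency and growth regulators of chromosome 8, 5 were higher and 5 lower in DNMT TKO shEmpty and 4 higher and 5 lower with shKap1, and in TET TKO 4 were higher and none lower with shEmpty and 3 higher and 1 lower with shKap1. The shares of all genes are those given above. Jund and Nacc1, transcription regulators of the same middle stretch, were lower, at -0.70 ± 0.18 and -0.44 ± 0.06.

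On chromosome 6, 6 of the 8 replication and segregation genes were lower in DNMT TKO with shEmpty and 7 with shKap1, beside 26.5% and 29.6% of all genes. Mcm2, a subunit of the replicative helicase, had 626, 674.5 and 662 CPM in WT shEmpty and 481, 487 and 482 CPM in DNMT TKO shEmpty, a log2 difference of -0.44 ± 0.05 (SE). Of the 11 pluripotency and growth regulators, 7 were lower and 2 higher with shEmpty, beside 26.5% and 26% of all genes. Nanog, a core pluripotency factor, had 902, 1159 and 1159 CPM in WT shEmpty and 861, 998 and 1042 CPM in DNMT TKO shEmpty. These overlapped and were not called, although each DNMT TKO library lay below the WT library of the same number.

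The largest changes of single members went well past the level of their chromosome. Slfn8, a Schlafen family gene of chromosome 11, had 0.610, 0.528 and 0.695 CPM in WT shEmpty and 13.0, 13.4 and 12.6 CPM in DNMT TKO shEmpty. Peg10, an imprinted gene derived from a retrotransposon in the first 10 Mb of chromosome 6, had 166, 252 and 259 CPM in WT shEmpty, 27.1, 25.1 and 23.8 CPM in DNMT TKO shEmpty and 38.7 and 35.8 CPM in TET TKO shEmpty. The first 10 Mb of chromosome 6 was the lowest full bin of that chromosome in both mutants, at -0.52 in DNMT TKO shEmpty and -0.42 in TET TKO shEmpty over 25 genes. In TET TKO shEmpty this bin was uneven. The 3 genes at 2 to 4 Mb had a median of 0.84 and the 11 genes at 4 to 6 Mb one of -1.37. The 6 genes at 6 to 8 Mb were at -0.24 and the 5 genes at 8 to 10 Mb at -0.43. Kbtbd11 on chromosome 8 rose by 6.39 ± 0.44 in DNMT TKO shEmpty on the log2 scale, and Synrg on chromosome 11 fell by 4.76 ± 0.18 in TET TKO shEmpty (SE, edgeR).

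Reads from repeats outside genes were also taken from the same libraries, as a weaker readout. Of 6999 integrants with 160 or more reads, 1103 lay on the 3 chromosomes. Over all 6999 the median was 7.67 reads per library in WT shEmpty and 6 in DNMT TKO shEmpty, so medians were often tied. It was 23.3 in WT shKap1 and 31 in both mutants with shKap1, so some integrants passed the minimum mainly through shKap1 libraries. In the study KAP1, and for some groups DNA methylation, repress repeats, so repression and dosage cannot be told apart here. On chromosome 11 the DNMT TKO values were 0.25 ± 0.085 with shEmpty and 0.32 ± 0.046 with shKap1 (SD, n = 3), where the other autosomes reached 0.12 and 0.14. On chromosome 6 they were -0.22 ± 0.038 and -0.37 ± 0.0096, where the others reached -0.15 and -0.19. In WT replicate 1 against replicates 2 and 3, repeats of chromosome 6 were at -0.17 and -0.18 and those of chromosome 8 at -0.22 and -0.11, beside -0.09 at the lowest over the other autosomes with either hairpin. Repeats of chromosome 11 were also below that range with shEmpty, at -0.13, and were at -0.0018 with shKap1. With at least 10 reads a library in WT, chromosome 11 was at 0.18 and 0.23 and the other autosomes reached 0.17 and 0.29. On chromosome 8, the 27 integrants of the first 10 Mb were at -0.72 and -1.31 in DNMT TKO and were low like the genes there. The 274 integrants from 10 to 90 Mb were at -0.09 and 0.07, the first opposite in sign to the genes, and the 72 beyond 90 Mb were at -0.08 and -0.04, without the low values of the genes there. With at least 10 reads a library in WT, DNMT TKO was at -0.18 and -0.05 from 10 to 90 Mb, both opposite to the genes. Beyond 90 Mb it was at -0.15 and 0.0066. The 27 integrants of the first 10 Mb were at -0.23 with shEmpty and 0.45 with shKap1 in TET TKO. In TET TKO, repeats of chromosome 8 did not show the rise of its genes: they were at 0.02 with shEmpty and -0.09 with shKap1, within the -0.08 to 0.24 and -0.20 to 0.24 of the other autosomes, and with at least 10 reads a library in WT they were at 0.06 and -0.02.

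The DNA of WT cells was measured in input libraries of a hydroxymethylated DNA immunoprecipitation, counted over regions of chromatin marks. Over all regions of at least 300 bp, the read density of chromosomes 6, 8 and 11 relative to the other autosomes was 0.991, 0.996 and 1.02 in the shEmpty input and 0.996, 0.997 and 1.01 in the shKap1 input. The other autosomes spanned 0.964 to 1.02 and 0.985 to 1.02, with a single library of each kind. Both inputs are numbered replicate 1, as are the WT RNA libraries that stood apart on chromosomes 6 and 8, but the labels do not say whether they came from the same cultures.

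Chromosomes 6 and 8 also stood apart in H3K27me3, the mark of Polycomb repressive complex 2, in WT cells. The peak lists held 28.4 and 35.8 peaks per Mb on chromosome 6 and 36.1 and 46.3 on chromosome 8, in replicates 1 and 2, whereas the 17 other autosomes, chromosome 11 included, had 4.42 to 15.0 and 5.76 to 16.4. Of the member genes of chromosome 8, 46.3% and 41.5% overlapped a peak, of chromosome 6 43.8% and 39.7%, and on the 17 other autosomes 19.5% to 30.9% and 20.4% to 28.7%. For H3K4me3, a mark of active promoters, the density was 11.1 and 13.5 on chromosome 6 and 12.9 and 15.3 on chromosome 8, within the 8.15 to 17.97 and 10.0 to 21.6 of the others. A peak list depends on a threshold, so these densities do not measure how much mark each peak carries.

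**Figure D4:**
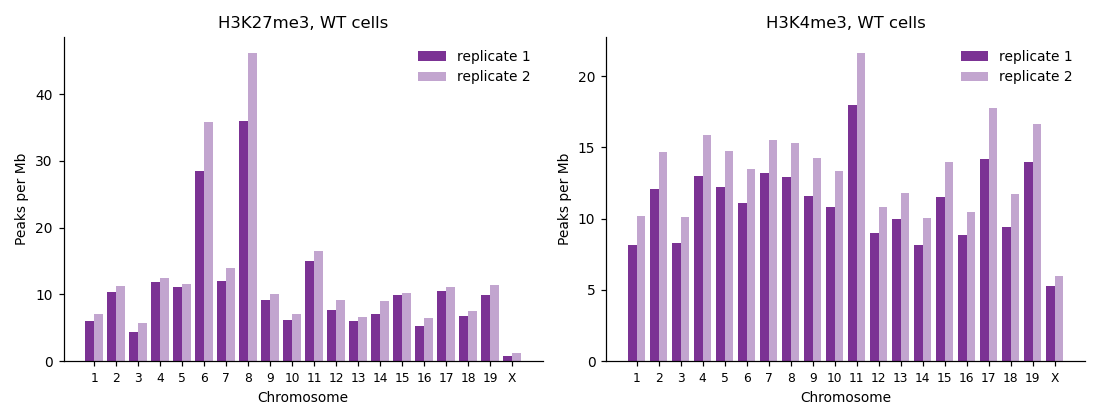
Bars give the number of deposited H3K27me3 (left) and H3K4me3 (right) peaks per Mb of each chromosome in WT cells, for both replicates. Chromosomes 6 and 8 hold 28.4 to 46.3 H3K27me3 peaks per Mb, above every other chromosome, and do not stand apart for H3K4me3.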

How the data were processed

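mRNA was sequenced as stranded single-end libraries. Per the file headers, the deposited gene counts were made by the authors with featureCounts 1.5.0-p1 on exons of mm9, on the reverse strand, at a mapping quality of at least 10; the methods name HISAT2 and unique alignments. Repeat counts and counts over chromatin regions are deposited read counts, and the peak lists hold a score column of which only the positions were used here. The deposited counts over regions of imprinting control were not used here.

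Genes with 160 or more reads over the 16 libraries entered edgeR 4.0.16 (TMM, quasi-likelihood, robust) with all 6 groups in 1 fit. Calls had a Benjamini-Hochberg adjusted p under 0.05 over all 15676 genes, with no fold threshold. Dosage values were taken from TMM-scaled log2 CPM (prior count 2). The code was tested on simulated data. The members and gene lists were chosen with earlier results of these data known. Named genes were members of the listed groups, the gene with most reads per chromosome and the 2 largest rises and falls per chromosome and line; exceptions are stated in the text. 4 DNA libraries whose labels and file names differ in role were kept out of groups. Replicates came from independent experiments, per the study's methods. Same-numbered WT and DNMT TKO shEmpty libraries deviated together (r = 0.24 to 0.45 over genes), those of shKap1 less (0.08 to 0.21), WT shEmpty with WT shKap1 at 0.20 to 0.39, DNMT TKO shEmpty with shKap1 at 0.17 to 0.50, and WT and TET TKO libraries did not (-0.06 to -0.0029). A result for 1 listed gene is not reported here.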

Additional observations from a re-analysis of the deposited data

Results flagged for a closer look

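H3K27me3 peaks of WT cells lie outside the RNA comparison and were flagged because chromosomes 6 and 8 exceeded every other chromosome: chromosome 6 held 28.4 and 35.8 peaks per Mb, and chromosome 8 held 36.1 and 46.3, in replicates 1 and 2. What gave these densities was not tested. No RNA group had the 4 libraries needed to test for a library far from the others.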

How the results depend on the processing

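Dosage values moved by less than the larger of the SD over the mutant and over the WT libraries in 106 of 114 alternatives; on chromosomes 6 and 8 WT replicate 1 makes that SD wide, and without it DNMT TKO shEmpty was at -0.300 on chromosome 6 and -0.195 on 8, and DNMT TKO shKap1 at -0.379 and -0.146. On chromosome 11, DNMT TKO shEmpty was at 0.299 with 16 or more reads and 0.352 from summed counts, and DNMT TKO shKap1 at 0.374, 0.430 and, with DESeq2 size factors and no subtraction, 0.381; TET TKO shKap1 was at 0.024 with 1600 or more reads and 0.024 to 0.037 with a library left out (without replicates 1 and 2 of WT shKap1). On chromosome 6, TET TKO changed sign with a library left out, at -0.063 to 0.028 (shEmpty) and -0.029 to 0.091 (shKap1). Requiring a fold of 2 left 496, 288, 631, 306, 473, 568, 460, 314 and 339 members called in DNMT TKO and TET TKO shEmpty, DNMT TKO and TET TKO shKap1, DNMT TKO against TET TKO (shEmpty, shKap1) and the knockdown in WT, DNMT TKO and TET TKO. The last had 1519 with its 2 groups alone and 654 to 712 with a library left out, TET TKO shEmpty had 565 to 995, and TET TKO shKap1 633 to 1082, the low values being those without replicate 1 or 2 of TET TKO itself, where the lone library is assumed to vary like the other groups. With the replicate block, the first 4 counts were 1874, 1017, 2023 and 1127, and no count moved by over 1.5 times. Among repeats, 16 or more reads gave -0.143 on chromosome 6 (DNMT TKO shKap1), and on chromosome 11 0.103 and 0.202 (DNMT TKO shEmpty, shKap1) and 0.099 (TET TKO shKap1); at least 10 reads a WT library gave 0.227 (DNMT TKO shKap1). Bins of 20 Mb moved chromosome 11 in TET TKO shEmpty from 46.2% to 28.6% of bins above 0. Over single region sets, DNA ratios with shEmpty were 1.004, 0.983, 0.559 and 1.011 on chromosome 6, 1.026, 0.974, 0.999, 0.637 and 1.041 on 8, and 1.005, 1.013, 0.721 and 1.055 on 11; with shKap1 they were 0.992, 0.530 and 1.026, then 1.021, 0.978, 1.005, 0.591 and 1.044, then 1.028, 0.654 and 1.028. The lowest of each came from KAP1-independent H3K9me3 regions, where the other autosomes spanned 0.545 to 1.26 with shEmpty and 0.595 to 1.32 with shKap1, so that chromosomes 6 and 8 lay below them with shKap1. Causes of these moves were not tested.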

Other observations

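The 9 measured genes of chromosome Y were also uneven between lines and WT replicates. Their summed level was 169, 229 and 227 CPM in WT shEmpty, where replicate 1 was the lowest, 371 to 392 CPM in DNMT TKO shEmpty and 425 to 435 CPM in TET TKO shEmpty. With shKap1 it was 192, 265 and 274 CPM in WT, 505 to 535 CPM in DNMT TKO and 483 to 496 CPM in TET TKO. Most of the sum came from Ddx3y, Eif2s3y and Uty, with means of 102, 70.5 and 34.3 CPM in WT shEmpty. The highest of the rest there was Usp9y, at 1.12 CPM. In DNMT TKO, Usp9y went from 2.96 CPM with shEmpty to 56.4 CPM with shKap1.

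In WT, reads of the 5hmC immunoprecipitation over H3K4me3 regions were denser on chromosomes 6 and 8 than on the other autosomes. Values for the other region sets are not given here. The paper describes loci with H3K4me3 as largely lacking 5hmC, and how much of these reads is background was not tested. The ratio was 1.18 and 1.22 on chromosome 6 and 1.26 and 1.28 on chromosome 8, for shEmpty and shKap1, where the other autosomes reached 1.118 and 1.104. The 4 libraries without a group had 1.20, 1.00, 1.25 and 0.999 on chromosome 6.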
